A study of Rattus norvegicus with 11 samples.

Results

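The vacuolar or V-type proton ATPase is described here through 10 of its genes in rat medial prefrontal cortex, with Atp6v1b2, the gene of the B2 subunit, beside the other subunits. The genes were Atp6v1a, Atp6v1b2, Atp6v1c1, Atp6v1d, Atp6v1e1, Atp6v1f and Atp6v1h of the V1 sector, Atp6v0d1 and Atp6v0a1 of the V0 sector, and Atp6ap1, an accessory subunit. They were found on the array by gene name, with or without the suffix that marks a predicted gene. That name match gave 9 genes and 11 probes. The array carries the tenth gene under its older name Atp6v1a1, which the RefSeq gene table lists as a synonym of Atp6v1a, and its 2 probes brought the total to 10 genes with 13 of the 41012 probes, among 35581 distinct gene names on the array. Atp6v1b2 was chosen by its difference in signal between the heroin and saline rats of these same arrays, which placed it on the study's own list, and the other 9 genes were taken because they belong to the same enzyme. The changes of all 10 are therefore given as a description, with standard errors and without p-values.

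RNA came from 6 male rats that had self-administered heroin and 5 male rats that received saline in a yoked schedule, in which a rat's infusions follow those of a partner. All 11 rats were 4 months old, had 14 days of abstinence and were sedated with Propofol and killed directly after an extinction session in the former drug environment. Their strain is not given in the sources used here. Both groups went through the abstinence and the extinction session, and the comparison sets heroin history against yoked saline history. The saline rats did not themselves control their infusions. The study reports more goal-directed responding by the heroin rats in that session. Responding shortly before death therefore cannot be told apart from heroin history. Each rat had 1 single-colour Agilent array. The methods name 1 further array, which was not analysed here.

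The V-ATPase uses the energy of ATP to pump protons across membranes. The cytosolic V1 sector holds the catalytic A subunits and the B subunits, arranged in alternation, and a central stalk with subunits D and F turns as ATP is split. The membrane-bound V0 sector carries the protons. Peripheral stalks of E and G subunits, with C, H and the a subunit, hold the sectors together. The pump acidifies lysosomes and endosomes in all cells, and in neurons it builds the proton gradient with which synaptic vesicles are filled with transmitter. Several subunits have paralogs that differ between tissues: B2 is the form of most cells including those of brain, and B1 is the form of kidney and inner ear.

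The probes are 60-base oligonucleotides, and their positions are those the array files give in rat build rn3. The sequences of the Atp6v1b2 and Atp6v0a1 probe pairs are shown because the probes of 1 gene gave different changes, and those of Atp6v1c1 and Atp6ap2 because these genes had the changes nearest to the fold threshold among the remaining subunits. All letters are lower case, since no base within them is singled out. Which exon or untranslated region each probe lies in was not analysed here.
Atp6v1b2, probe A_44_P149114, minus strand of chr16:22325704-22327661: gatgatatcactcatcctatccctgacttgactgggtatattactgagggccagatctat
Atp6v1b2, probe A_44_P257221, minus strand of chr16:22321027-22321086: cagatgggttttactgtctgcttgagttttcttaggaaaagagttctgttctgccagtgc
Atp6v1c1, probe A_43_P16458, plus strand of chr7:74382953-74383012: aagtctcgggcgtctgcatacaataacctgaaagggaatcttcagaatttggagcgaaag
Atp6v0a1, probe A_44_P293791, plus strand of chr10:90086119-90086179: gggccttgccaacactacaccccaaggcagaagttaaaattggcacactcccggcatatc
Atp6v0a1, probe A_44_P402760, plus strand of chr10:90085329-90085388: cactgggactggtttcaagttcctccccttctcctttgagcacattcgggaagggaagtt
Atp6ap2, probe A_44_P1011008, minus strand of chrX:22318317-22318373: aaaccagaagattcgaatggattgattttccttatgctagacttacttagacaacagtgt
Atp6ap2, probe A_44_P317520, minus strand of chrX:22326066-22327586: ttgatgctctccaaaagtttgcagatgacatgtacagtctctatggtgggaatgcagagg

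The first Atp6v1b2 probe is the one on the study's list. Its 60 bases were placed across 1958 genomic bases, so they are not contiguous in rn3, while the second Atp6v1b2 probe lies in 1 block of 60 bases that starts 4677 bases lower on the chromosome. Both have a GC content of 43.3%. The second Atp6ap2 probe above is likewise split, across 1521 bases. Among the other members, the probes of Atp6v1d and Atp6v0d1 were placed across 4193 and 153 bases.

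Values below are signals divided by the array's median probe and are called relative signals. They are compared between rats for 1 probe at a time. Where 1 probe is subtracted from another within a rat, only the group difference of the result is compared, since the levels of different probes are not on 1 scale. The median raw signal was 42.7 to 78.3 on the heroin arrays and 58.0 to 83.2 on the saline arrays, and 28185 to 33209 and 30098 to 33835 probes were detected. The array of heroin rat 6 stood apart. The SD of its deviations from the group mean over tested probes was 0.44 on the log2 scale, against 0.19 to 0.31 on the other 10. Array position could not be told apart from group, because every heroin array carried position 4 of its slide in the file headers and every saline array position 3. Scaling mattered as well. With each array divided by its 50th percentile, the median tested probe was 0.18 higher in heroin rats on the log2 scale and 78.7% of the tested probes lay above 0. With quantile normalization, which gives all arrays the same distribution of signals, the median was 0.01. Both values are therefore given for the members.

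Atp6v1b2 had a relative signal of 32.0, 34.4, 50.8, 26.1, 43.9 and 27.8 in heroin rats 1 to 6 and of 22.8, 17.1, 17.1, 30.0 and 26.7 in saline rats 2 to 6. Of the heroin values 4 lay above every saline value, while those of heroin rats 4 and 6 fell below that of saline rat 5, so the groups overlapped. The means were 35.8 ± 9.64 (SD, n = 6) and 22.7 ± 5.74 (SD, n = 5). The difference was 0.65 on the log2 scale (SE 0.20), or 1.57-fold, and stood at the 99.5th percentile of the changes of all 25555 tested probes. After quantile normalization it was 0.41 (SE 0.22), or 1.33-fold. Leaving out each rat in turn gave 0.54 to 0.76 with 50th percentile scaling, and 0.72 without heroin rat 6.

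The thresholds used below are those of the methods, p under 0.02 before adjustment together with 1.4-fold or more. The count past both was 1 of the 10 genes with limma, and 1 of the 13 probes. Over all tested probes 1.79% were past the same thresholds in the same direction. The count follows from the way Atp6v1b2 was chosen and nothing is read from it. No member was past the thresholds after quantile normalization, where 0.853% of tested probes were called higher, or after 75th percentile scaling, where 0.129% were. No probe on the array had an adjusted p under 0.05 by limma with Benjamini-Hochberg adjustment, the smallest being 0.263, and 4729 probes had an unadjusted p under 0.05.

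The second Atp6v1b2 probe gave a smaller difference. It was measured on 4 of the 6 heroin arrays, because the software had marked its spot on the arrays of heroin rats 1 and 5, and the fit drops those values. Its relative signal was 304, 334, 283 and 211 in heroin rats 2, 3, 4 and 6 and 217, 195, 203, 279 and 238 in saline rats 2 to 6. The heroin value of rat 6 was below 3 of the 5 saline values. The difference was 0.31 on the log2 scale (SE 0.17), 0.34 with the marked spots kept, and 0.04 after quantile normalization. Within each rat, the first probe minus the second was -3.05 ± 0.31 in heroin rats (SD, n = 4) and -3.34 ± 0.19 in saline rats (SD, n = 5), and the groups overlapped. The mean of both probes with marked spots kept gave a heroin minus saline difference of 0.50.

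**Figure D1:**
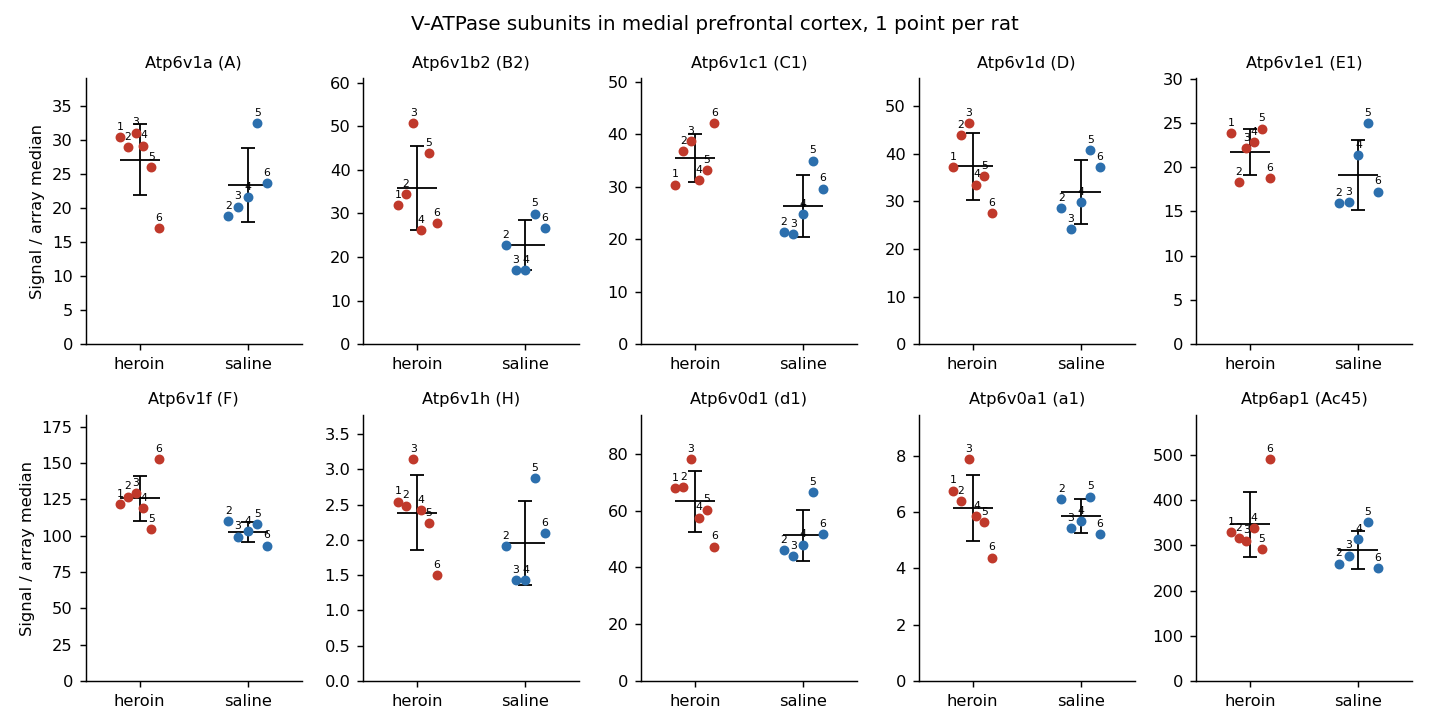
Relative signal (signal divided by the array's median probe, no unit) of 1 probe of each of the 10 genes, with the subunit letter in brackets, for 6 heroin and 5 saline rats; points carry the rat's replicate number, the horizontal line is the mean and the bar 1 SD. For Atp6v1b2, 4 of the 6 heroin points lie above the highest saline point at 30.0, and for every gene the 2 groups overlap.

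Among the other V1 genes, Atp6v1c1, which encodes the C subunit that joins V1 to V0, had the next highest change. Its relative signal ran from 30.4 to 42.2 in heroin rats, with a median of 35, and was 21.3, 21.0, 24.8, 35 and 29.6 in saline rats 2 to 6. Only saline rat 5 reached the heroin range. The difference was 0.45 on the log2 scale (SE 0.16), or 1.36-fold, just under the fold threshold and at the 95.3th percentile of all tested probes, and 0.19 (SE 0.13) after quantile normalization.

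Atp6v1a encodes the catalytic A subunit. Its brighter probe gave 17.0 to 31.1 in heroin rats, with a median of 29.1, and 18.8, 20.2, 21.6, 32.5 and 23.6 in saline rats 2 to 6. The lowest value of all 11 belonged to heroin rat 6 and the highest to saline rat 5. The difference was 0.21 on the log2 scale (SE 0.18), and -0.04 after quantile normalization. The second Atp6v1a probe, 4032 bases away, gave 0.23 and 0.04.

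Atp6v1d, the gene of subunit D in the central stalk, ran from 27.6 to 46.5 in heroin rats and was 28.6, 24.1, 29.8, 40.7 and 37.1 in saline rats, a log2 difference of 0.22 (SE 0.17) and of -0.03 after quantile normalization. Atp6v1f, the gene of subunit F in the same stalk, ran from 105 to 152 in heroin rats and was 110, 99.3, 103, 108 and 93.1 in saline rats. All its heroin values but the 105 of rat 5 lay above all saline values. Its log2 difference was 0.29 (SE 0.12), and 0.05 after quantile normalization.

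Atp6v1e1, the gene of peripheral stalk subunit E1, ran from 18.3 to 24.3 in heroin rats and was 15.9, 16.1, 21.4, 25.0 and 17.3 in saline rats. The highest value was again that of saline rat 5. Its log2 difference was 0.20 (SE 0.15), and -0.05 after quantile normalization. Atp6v1h encodes subunit H, which is known to stop ATP hydrolysis in V1 once it has come off V0. It ran from 1.5 to 3.14 in heroin rats and was 1.92, 1.43, 1.43, 2.88 and 2.10 in saline rats. Its log2 difference was 0.31 (SE 0.21), and 0.18 after quantile normalization.

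Of the V0 genes, Atp6v0d1 encodes subunit d1, which couples the turning stalk to the proton-carrying ring. It ran from 47.3 to 78.0 in heroin rats, with a median of 64.2, and was 46.2, 44.0, 48.0, 66.6 and 51.9 in saline rats. All heroin rats but rat 6 lay above 4 of the 5 saline rats. The log2 difference was 0.30 (SE 0.15), and 0.05 after quantile normalization. Atp6v0a1 encodes a1, the a subunit form known from synaptic vesicles. It had the lowest change of the 10 genes under both scalings, with 4.38 to 7.87 in heroin rats, 6.47, 5.43, 5.67, 6.55 and 5.21 in saline rats and a log2 difference of 0.05 (SE 0.15), or -0.17 after quantile normalization. Its dimmer probe, which begins 790 bases lower on the chromosome, gave 0.26 (SE 0.14) and 0.09. Each rat's difference between the 2 probes, brighter minus dimmer, was 0.92 ± 0.27 in heroin rats (SD, n = 6) and 1.13 ± 0.12 in saline rats (SD, n = 5), with overlap.

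Atp6ap1 encodes Ac45, a membrane glycoprotein that binds V0. Its relative signal ran from 292 to 490 in heroin rats, with a median of 323, and was 259, 277, 314, 352 and 249 in saline rats. Heroin rat 6 alone stood above 352. The log2 difference was 0.24 (SE 0.15), and -0.01 after quantile normalization.

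All 13 probes were detected on all 11 arrays, none was saturated, and all passed the filter on dim probes. The groups overlapped at each of the 13 probes, while over all tested probes 1.67% had every heroin rat above every saline rat and 0.129% the reverse. The median change of the 10 genes was 0.26 on the log2 scale against 0.18 for all tested probes, and 0.02 against 0.01 after quantile normalization. All 10 genes lay above 0 with 50th percentile scaling, as did 78.7% of tested probes. After quantile normalization 5 of the 10 lay above 0, beside 53.2% of tested probes, and the 5 below were Atp6v1a, Atp6v1d, Atp6v1e1, Atp6v0a1 and Atp6ap1.

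**Figure D2:**
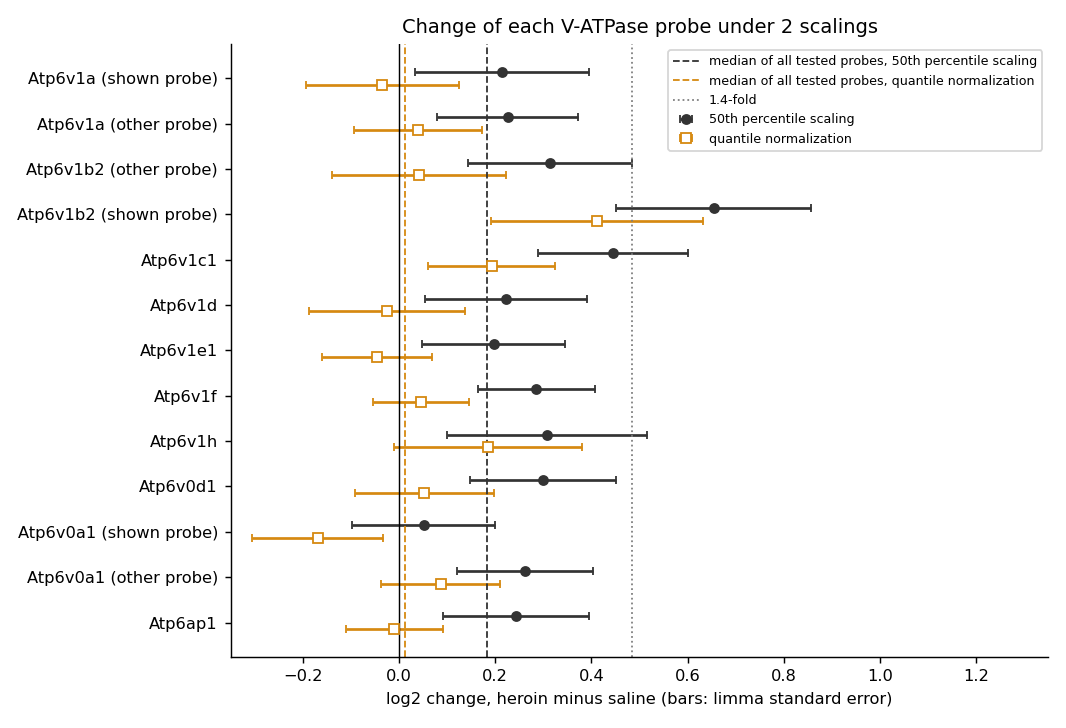
Log2 change, heroin minus saline, of all 13 probes with limma standard errors, for 50th percentile scaling (filled circles) and quantile normalization (open squares); "shown" marks the probe that stands for a gene with 2 probes, dashed lines mark the median of all tested probes under each scaling and the dotted line 1.4-fold. The Atp6v1b2 probe at 0.65 and 0.41 lies to the right of all other probes, including the second Atp6v1b2 probe at 0.31 and 0.04.

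A factor common to an array cancels when a gene is set against the other 9 genes of the same rat. The first Atp6v1b2 probe, minus the mean of the other 9 genes, was 0.16 ± 0.31 on the log2 scale in heroin rats (SD, n = 6) and -0.24 ± 0.24 in saline rats (SD, n = 5). The difference between the groups was 0.40, and it lay between 0.32 and 0.48 when each rat was left out in turn. With the other 6 V1 genes as reference it was 0.38. Relative to the saline mean, heroin rats 3 and 5 were at 0.75 and 0.81, heroin rats 1, 2 and 6 at 0.23, 0.34 and 0.27, and heroin rat 4 at 0.02. Saline rats 2, 5 and 6 stood at 0.15, 0.08 and 0.27, within the heroin range. With the second Atp6v1b2 probe the difference was 0.06. It lacked heroin rats 1 and 5, so the differences of the 2 probes do not rest on the same rats.

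On the same scale, Atp6v1c1 differed by 0.17 between the groups and, without heroin rat 6, by 0.07. The difference of Atp6v0a1 was -0.27, lower in heroin rats, with a range of -0.32 to -0.20 over the rats left out, and its heroin and saline values overlapped. That value is for its brighter probe, whose own change was 0.05. The dimmer probe, with a change of 0.26, was not set against the other genes, so the drop is that of 1 probe. The other 7 genes lay between -0.11 for Atp6v1e1 and 0.02 for Atp6v1h. The mean of the 9 genes without Atp6v1b2 was 4.96 ± 0.13 on the log2 scale in heroin rats and 4.71 ± 0.22 in saline rats, a difference of 0.25, and of 0.02 after quantile normalization.

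**Figure D3:**
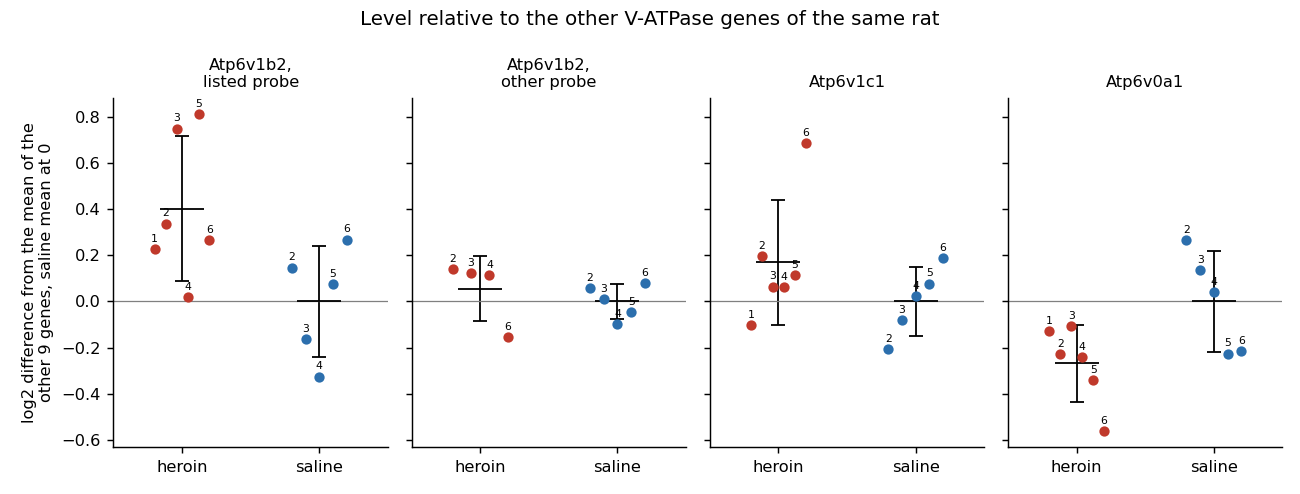
Log2 level of 4 probes (for Atp6v1b2 the first, listed probe and the second, other probe) minus the mean of the other 9 V-ATPase genes in the same rat, shifted so that the saline mean is 0; points are rats with their replicate number, lines are means and bars 1 SD, for up to 6 heroin and 5 saline rats. The group means of the first Atp6v1b2 probe lie 0.40 apart, those of the second 0.06, and those of the brighter Atp6v0a1 probe -0.27, with the heroin mean lower.

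Arrays with the same replicate number, from 2 to 6, carried the same scan time in their headers, and heroin rat 1 was scanned alone. Within these 5 scan pairs, heroin minus saline at the first Atp6v1b2 probe was 0.59, 1.57, 0.61, 0.55 and 0.06 on the log2 scale for numbers 2 to 6. The heroin rat was higher in 5 of 5 pairs, and the pair of number 3 had the widest gap. Nothing is read from the count of pairs, since the probe was chosen by its difference on these same arrays. After quantile normalization the differences were 0.20, 1.24, 0.46, 0.73 and -0.40, with 4 of 5 pairs higher. A fit with the scan as a block leaves out heroin rat 1, which has no partner. It gave a difference of 0.68, the same as without that rat and with no block, and 0.45 after quantile normalization.

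For Atp6v1c1 the pair differences were 0.79, 0.88, 0.34, -0.08 and 0.51, and after quantile normalization 0.39, 0.54, 0.17, 0.09 and 0.02, above 0 in all 5 pairs. Without heroin rat 1 its difference was 0.49, with or without the scan block, and it was past both thresholds in both fits, so that the count of members was 2, beside 2.09% of tested probes higher with the block. Atp6v1h ran from -0.49 in pair 6 to 1.13 in pair 3 with 50th percentile scaling. The pairs of numbers 5 and 6 turned negative for Atp6v1a, Atp6v1d, Atp6v1h, Atp6v0d1 and Atp6v0a1, while those of numbers 3 and 4 were positive for all 10 genes with 50th percentile scaling.

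**Figure D4:**
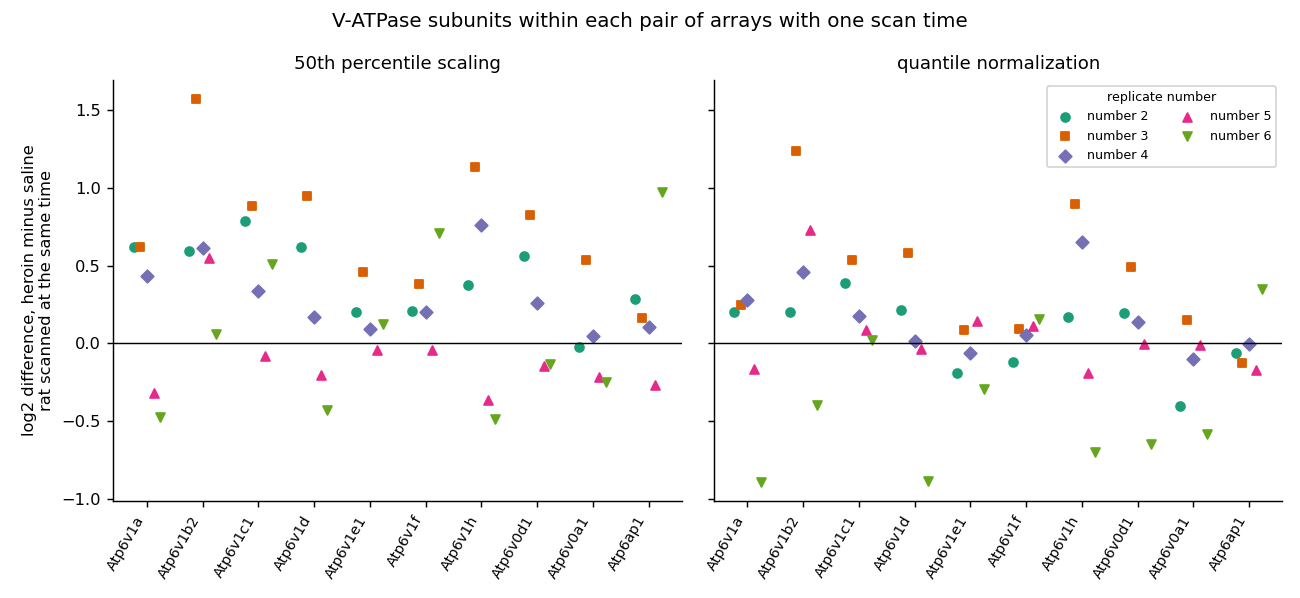
Log2 difference, heroin minus saline, for each of the 10 genes within the 5 pairs of arrays that share a scan time, with 50th percentile scaling on the left and quantile normalization on the right; symbols stand for the replicate number. Atp6v1b2 is above 0 in 5 of 5 pairs on the left and 4 of 5 on the right, and the pair of number 6 is the lowest for Atp6v1a and Atp6v1d in both panels.

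How the subunits varied among rats of a group was described by Pearson's r over the 11 rats, after the group means were removed and arrays quantile normalized. Points share an array, so array-wide deviations enter every r. A tight set was formed by Atp6v1d, Atp6v0d1, Atp6v1h and Atp6v1a, with r of 0.93 between Atp6v1d and Atp6v0d1, 0.91 between Atp6v1h and Atp6v0d1, and 0.79 to 0.90 for the pairs with Atp6v1a. Atp6v1b2 had an r of 0.82 with Atp6v1d, 0.80 with Atp6v0d1, 0.74 with Atp6v1h, 0.61 with both Atp6v1c1 and Atp6v0a1, 0.55 with Atp6v1a, 0.36 with Atp6v1e1, 0.20 with Atp6v1f and -0.27 with Atp6ap1. Its median r with the other 9 genes was 0.61, against 0.26 for the 36 pairs among those 9 and 0.12 with all 8557 named genes ranked.

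Atp6ap1 and Atp6v1f stood outside the set. Atp6ap1 ran opposite to Atp6v0a1 at -0.70, to Atp6v1a at -0.66 and to Atp6v0d1 at -0.62, and Atp6v1f opposite to Atp6v1e1 at -0.66. Part of this rested on heroin rat 6. Without it, over 10 rats, Atp6ap1 had an r of -0.20 with Atp6v0a1, 0.53 with Atp6v1a and 0.14 with Atp6v0d1, while r was 0.91 between Atp6v1d and Atp6v0d1, 0.85 between Atp6v1h and Atp6v0d1, 0.70, 0.77 and 0.87 for Atp6v1a with Atp6v1d, Atp6v0d1 and Atp6v1h, 0.87 between Atp6v1b2 and Atp6v0d1, and 0.92 in place of 0.53 between Atp6v1c1 and Atp6v1d. The medians were then 0.56 for Atp6v1b2 with the others and 0.37 among the others.

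**Figure D5:**
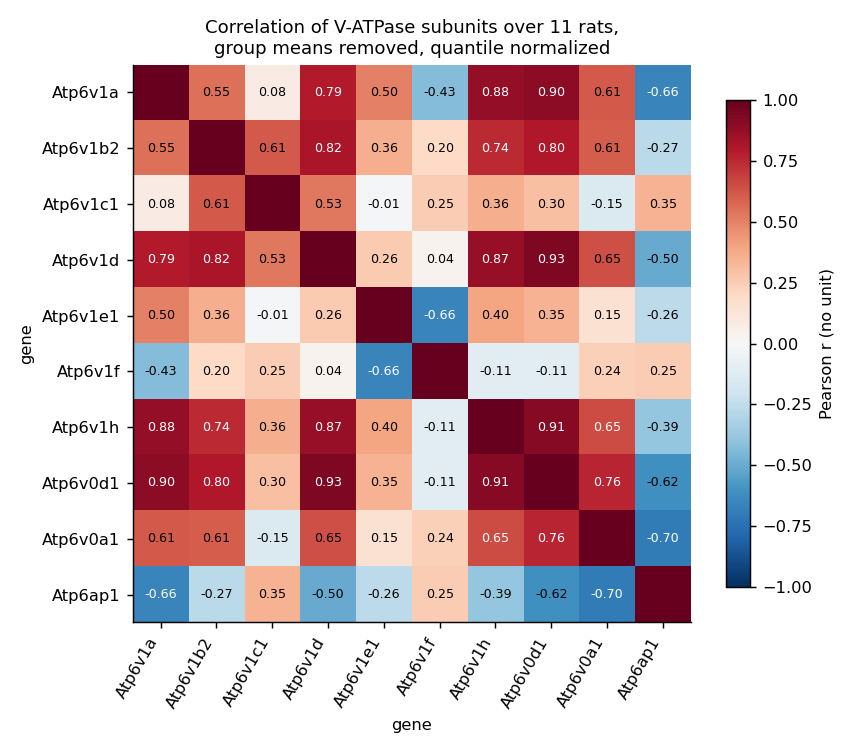
Pearson's r between the 10 genes over 11 rats after removal of the group means (quantile normalized log2 signals), from -1 in blue to 1 in red, with genes on both axes. Atp6v1a, Atp6v1d, Atp6v1h and Atp6v0d1 share high values up to 0.93, and Atp6ap1 is negative with 7 of the 9 other genes.

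The 5 named genes whose deviations followed those of Atp6v1b2 most closely over the 11 rats were Cct7, a chaperonin subunit, at 0.96, Trpc4, a cation channel, at 0.95, Lypd1 at 0.95, Oprl1, the nociceptin receptor, at 0.94 and Tmem50b at 0.94. Serpine2, a protease inhibitor, at -0.96 and Josd3 at -0.96 were the lowest. Of the other 9 members, Atp6v1d had the best rank among the 8557 genes, at 183.

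The array also carries 15 further V-ATPase subunit genes. Several of them are paralogs known from other tissues, and their probes were dim here. Atp6v1b1, the kidney form of B, was well above background on 1 of 11 arrays, Atp6v0a4, the kidney form of a, on 1, Atp6v1g3 on 3, Atp6v0d2, known from osteoclasts, on 5, Atp6v0a2 on 7 by its brighter probe, and Atp6v1e2, the testis form of E, on 8. These 6 were not tested. The 9 tested genes were Atp6v1c2, Atp6v1g1, Atp6v1g2 (the neuronal form of G), Tcirg1 (the a3 form), Atp6v0b, Atp6v0c, Atp6v0e1, Atp6v0e2 and Atp6ap2.

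None of the 9 was past the thresholds by the probe that stands for the gene, beside 2.72% of all tested probes in either direction. By limma, Atp6ap2 and Atp6v0e2 had an unadjusted p under 0.05, as had 18.5% of tested probes, and none of the 9 had an adjusted p under 0.05. The 9 changes ran from 0.02 for Atp6v1c2, whose limma p was 0.893, to 0.46 for Atp6ap2, with a median of 0.20. After quantile normalization the median was -0.02 and 3 of 9 lay above 0.

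Atp6ap2 encodes the second accessory subunit, also known as the (pro)renin receptor. Its brightest probe ran from 21.3 to 35.9 in heroin rats, with a median of 32.4, and was 16.1, 17.9, 21.3, 36.1 and 25.6 in saline rats 2 to 6. Saline rat 5 again lay above all heroin rats. The log2 difference was 0.46 (SE 0.20), and 0.22 after quantile normalization. With 50th percentile scaling it had an unadjusted p of 0.0389 and an adjusted p of 0.263 by limma, and an exact permutation p of 0.0823 (two-sided). Its second probe, which stands 7749 bases away, gave 0.55 (SE 0.17), with a limma p of 0.00513, an exact permutation p of 0.0173 and an adjusted p of 0.263, and was past both thresholds with 50th percentile scaling but not with quantile normalization, at 0.31. That probe was higher in the heroin rat in 4 of 5 scan pairs, and in 3 of 5 after quantile normalization. Another probe of the gene gave 0.59 with an SE of 0.55.

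Atp6v0e2, a small V0 subunit, had a relative signal of 12.9 to 19.6 in heroin rats and 13.8, 11.8, 11, 12.9 and 12 in saline rats. The log2 difference was 0.32 (SE 0.13), with a limma p of 0.0283, an exact permutation p of 0.0173 and an adjusted p of 0.263, and 0.08 after quantile normalization. Atp6v0d2 lay below the detection filter. Its relative signal was 0.314, 0.167, 0.281, 0.087, 0.323 and 0.118 in heroin rats and 0.539, 0.551, 0.404, 0.522 and 0.641 in saline rats, without overlap. Over tested probes 0.129% had every heroin rat below every saline rat. That share was not computed for probes below the filter, so nothing is read from the lack of overlap. Atp6v0d2 was well above background on 1 of the 6 heroin and 4 of the 5 saline arrays. Without the filter its log2 difference was -1.46 (SE 0.33, limma p of 0.000747, adjusted p of 0.360), and -1.22 after quantile normalization. Over all probes 1560 were then past both thresholds, of which 475 were higher in heroin rats, against 694 and 458 with the filter. Most of the calls gained among dim probes were therefore lower, as at Atp6v0d2. Most heroin values of Atp6v0d2 are not well above background, so their size is uncertain.

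Genes that act with the pump were compared in the same way, and no list had a gene past the thresholds with 50th percentile or quantile scaling. Of 11 assembly and regulation genes, 5 were on the array and 3 were tested. Their log2 changes were 0.48 for Oxr1 (SE 0.16, limma p of 0.0104, exact permutation p of 0.0216, adjusted p of 0.263), which encodes a protein of the TLDc family, 0.47 for Dmxl1 (SE 0.17, limma p of 0.0154), whose product belongs to the rabconnectin complex that helps assemble the pump, and 0.15 for Ccdc115 (SE 0.13), an assembly factor. Oxr1 and Dmxl1 missed the fold threshold. Their further probes differed. An Oxr1 probe at 0.53 (SE 0.20, limma p of 0.0199) was past both thresholds with 50th percentile scaling. Another Oxr1 probe gave 0.14 (SE 0.21, limma p of 0.530). The other Dmxl1 probe gave 0.20 (SE 0.15, limma p of 0.218), near the median of 0.18 for all tested probes. After quantile normalization Oxr1 and Dmxl1 stood at 0.24 and 0.25 by the probes that stand for the genes.

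Of 28 lysosome genes 26 were on the array and 23 were tested, with a median change of 0.19, or -0.04 after quantile normalization, and 22 of 23 above 0, or 9 of 23. Their highest value was 0.40 for Gaa (SE 0.14, limma p of 0.0132, adjusted p of 0.263), acid alpha-glucosidase. The lowest was -0.28 for Tfeb (SE 0.12, limma p of 0.042, adjusted p of 0.265, exact permutation p of 0.0238), the transcription factor known to drive lysosomal and V-ATPase genes, with a relative signal of 2.90 ± 0.34 in heroin rats (SD, n = 6) and 3.52 ± 0.36 in saline rats (SD, n = 5) and -0.47 after quantile normalization. With 75th percentile scaling Tfeb was at -0.50 and past both thresholds, beside 2.92% of tested probes called lower. The 10 synaptic vesicle genes were all tested, with a median of 0.17, or -0.05, from -0.51 for Slc17a8 (SE 0.30), to 0.32 for Slc17a6 (SE 0.22), both vesicular glutamate transporters. For the mitochondrial F-type ATP synthase, the related rotary enzyme that makes ATP, 13 of 15 genes were tested, with a median of 0.19, or -0.06, from 0.07 for Atp5h to 0.48 for Atp5i (SE 0.28), whose spot was marked on 5 arrays and dropped there.

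The tissue label was checked with marker lists. All 5 neuron markers were tested, and their mean log2 level per rat after quantile normalization was 6.25 to 6.73 in heroin rats and 6.48 to 6.69 in saline rats. For the other lists the heroin and saline ranges were 4.39 to 5.94 and 4.86 to 6.20 for oligodendrocytes (6 of 6 tested), 4.33 to 4.88 and 4.49 to 4.89 for astrocytes (5 of 5), 3.22 to 3.88 and 3.24 to 3.67 for microglia (5 of 6), 1.36 to 1.67 and 1.55 to 1.76 for endothelium (4 of 5), 1.66 to 3.06 and 2.11 to 3.63 for blood (2 of 3) and 0.65 to 1.06 and 0.75 to 1.52 for striatum (4 of 5). These levels average every marker on the array, tested or not. They include the untested probes of Itgam (microglia), Pecam1 (endothelium), Drd2 (striatum) and Kl (choroid plexus). The choroid plexus list, with 2 of 3 tested, lay between -1.06 and -0.37 and between -0.90 and -0.46. No marker list had a gene past the thresholds, and the ranges of the groups overlapped for each. After quantile normalization, where 53.2% of tested probes lay above 0 and their median was 0.01, none of the 6 oligodendrocyte markers lay above 0 (median -0.24), none of the 4 striatum markers (median -0.34), none of the 2 choroid plexus markers (median -0.19), 1 of 4 endothelium markers (median -0.17) and 1 of 5 neuron markers (median -0.11). Of the remaining lists, 2 of 5 astrocyte, 2 of 5 microglia and 1 of 2 blood markers lay above 0. With 50th percentile scaling 3 of 6 oligodendrocyte, 1 of 4 striatum and 1 of 2 choroid plexus markers lay above 0, beside 78.7% of tested probes. So did 3 of 4 endothelium, 5 of 5 neuron, 5 of 5 astrocyte, 5 of 5 microglia and 1 of 2 blood markers. In bulk tissue fewer cells of a type and less RNA per cell cannot be told apart, and the part of cell composition in the V-ATPase values was not tested.

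Many V-ATPase and lysosomal genes are textbook targets of Tfeb, which binds the CLEAR element, a palindrome of 10 bases with the core CACGTG. RefSeq promoters of build GRCr8, windows of 300 bases around the gene start, were at hand for 7 of the 10 members, and Atp6v1b2, Atp6v1c1 and Atp6v1h were not among them. Both motifs read the same on either strand, and the core lies within the full element. The core was found in 1 of 7 promoters, or 14.3%, against 6.42% of all 33469 promoters, 1 of 13 of the other V-ATPase genes and 6 of 21 lysosome genes. The full element was in 0 of the 7 and in 0.233% of all. The promoter with the core is that of Atp6v0d1, while those of Atp6v1a and Atp6v1d, which varied with Atp6v0d1 across rats, lacked it. The Atp6v0d1 promoter is shown with the core in capitals, 52 bases before the start, on the minus strand of chr19:50357199-50357498.
Atp6v0d1 promoter: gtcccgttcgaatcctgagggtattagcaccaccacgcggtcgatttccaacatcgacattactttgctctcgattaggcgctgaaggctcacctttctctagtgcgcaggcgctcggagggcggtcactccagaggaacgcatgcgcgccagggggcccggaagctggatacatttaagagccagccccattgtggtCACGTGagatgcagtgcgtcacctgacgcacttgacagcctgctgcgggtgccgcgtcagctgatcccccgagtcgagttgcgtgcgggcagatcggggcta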

How the data were processed

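The authors extracted total RNA from cortex medial to the forceps minor, labelled it with Cy3 and hybridised it to Agilent 4x44K arrays, and deposited for each of 45018 spots an intensity that Feature Extraction 9.5.1.1 had corrected for background and had not scaled between arrays. A ratio per probe and rat, which the authors made in GeneSpring by flooring intensities at 5, dividing by the array's 50th percentile and by the gene's median, was deposited too and served as an alternative. No column of comparisons between groups was used.

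From the intensities, marked spots were removed, values were floored at 5, divided by the 50th percentile of the non-control probes and taken to log2 (spots of a probe averaged). A probe was tested if at least 0.5 of its spots were well above background on all 11 arrays and at least 2 arrays per group were usable, which left 25555. Heroin and saline rats were compared with limma 3.58.1 (lmFit and eBayes, two-sided, R 4.3.3) with Benjamini-Hochberg adjustment over all 25555, by the methods' thresholds of p under 0.02 and 1.4-fold, and for single genes by an exact permutation test over 462 divisions of the rats, whose smallest possible p is 0.00216. The limma fit was run on simulated data with independent noise and known added changes. That check did not cover array-wide shifts such as those seen here. P-values measure the spread between rats.

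A gene with several probes was represented by the one the study lists, otherwise by the brightest tested one. All 10 members were named, with, per list, genes past the thresholds or else the highest and lowest, and the 5 most and 2 least like Atp6v1b2 among named genes. Dmxl1, Atp6v0e2, Atp6v0d2 and the further probes of Atp6ap2, Oxr1 and Dmxl1 were named after their values were seen. The members and lists were chosen with earlier results of these data known. Groups and replicate numbers came from sample titles. Array precision is limited by the number of rats. Alternatives tried were 75th percentile and quantile scaling, normexp (offset 50), scaling before the floor, the deposited ratios, other detection filters, eBayes with trend and robust options, the t-test of the methods, the replicate block, averaged probes and leaving out each rat. Centring on the tested probes, members by array name alone and marked spots kept were chosen after seeing the data.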

Additional observations from a re-analysis of the deposited data

Results flagged for a closer look

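In 2 of 26 groups of probe values examined, 1 sample stood far from the others by Dixon's ratio of its gap to the group's range, and chance alone flags about 1 in 20 groups. Both were heroin rat 6. At the brighter Atp6v1a probe its relative signal of 17.0 was the lowest of the 6 heroin values, with a ratio of 0.706, while the others lay between 26.0 and 31.1. At Atp6ap1 its 490 was the highest, with a ratio of 0.712, while the others lay between 292 and 339. This array had the widest deviations of the 11. Without it the log2 change of Atp6v1a was 0.34 in place of 0.21, and that of Atp6ap1 was 0.14 in place of 0.24.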

How the results depend on the processing

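The count of members past both thresholds, 1 as given (Atp6v1b2), was 0 with 75th percentile scaling, quantile normalization, normexp and centring on the tested probes, 2 with the replicate block and 1 to 2 with a rat left out (2 without heroin rat 1, saline rat 5 or saline rat 6, the second being Atp6v1c1). It was 1 under the other alternatives run. Of all probes past both, 430 of 634 were higher without heroin rat 1, 1615 of 2352 without saline rat 5 and 397 of 530 without saline rat 6. The count of other subunit genes, 0 as given, was 1 without a detection filter (Atp6v0d2, lower) and 0 to 1 with a rat left out (Atp6ap2, without heroin rat 6 or saline rat 5). Of all probes past both, 475 of 1560 were higher without a filter, 604 of 787 without heroin rat 6 and 1615 of 2352 without saline rat 5. All probes past both thresholds, 694 as given, numbered 457 with quantile normalization, 126 with normexp, 1560 without a filter, 1066 with detection in 1 group, 309 by the methods' t-test (0 after adjustment) and 342 to 2352 with a rat left out, 342 without saline rat 2, 394 without saline rat 3 and 2352 without saline rat 5. Of the 694, 458 were higher in heroin rats, against 218 of 457 with quantile normalization and 33 of 779 with 75th percentile scaling. The log2 change of Atp6v1b2 stayed above 0 in every alternative run, from 0.41 with quantile normalization to 0.76 without saline rat 5. The probe was chosen by its difference on these same arrays. Nothing is therefore read from this sign or from the ranges with a rat left out. The within-rat difference of Atp6v1b2, 0.402, was 0.055 with the other probe, which was measured in 4 of the 6 heroin rats. The cause of these shifts was not tested.

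Same-numbered arrays correlated at 0.37, -0.10, 0.34, 0.14 and -0.27 for numbers 2 to 6 after group means were removed, and 2 of 5 correlated best with their own number, so the numbers were not taken to pair the rats. With the number as a replicate block, which leaves out heroin rat 1 and equals the scan time, Atp6v1b2 changed by 0.68, members past both thresholds numbered 2, other subunit genes 0 and all probes 791, of which 529 were higher. The slide as a block was not run, since the files used here do not name the slides. Signals near background, as at Atp6v0d2, set the limit for the dim paralogs, and array position cannot be told apart from group.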
